A study of Mus musculus with 4 samples.

Results

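Retinoic acid is made inside cells from retinol, the circulating form of vitamin A. Retinol dehydrogenases oxidize retinol to retinaldehyde, retinaldehyde dehydrogenases oxidize that to retinoic acid, cellular retinoic acid binding proteins carry it in the cytosol, and in the nucleus it binds retinoic acid receptors, which act on target genes as dimers with retinoid X receptors. CYP26 enzymes break it down. Stroma that makes retinoic acid can expose neighbouring blood progenitors to it, and the pathway is known for driving hematopoietic differentiation as well as for acting on stem cell self-renewal. The 10 genes described here cover these steps: Rdh10, Aldh1a1, Aldh1a2, Aldh1a3, Crabp1, Crabp2, Rara, Rarb, Rarg and Cyp26b1. They were represented by 14 of the 45037 tested probe sets, those that the array annotation assigned to a member gene alone, and made up 10 of 18193 measured genes. In the order given they lie on mouse chromosomes 1, 19, 9, 7, 9, 3, 11, 14, 15 and 6. The genes were picked with the contrast between the lines in view, so their differences between lines are given as a description with no p-value, and a call on a member says only that it passed the threshold set for all probe sets.

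The study compared the supportive line OP9M2 with the non-supportive line BFC012 to learn what OP9M2 is and how it sustains human hematopoietic cells. OP9M2 is a mouse mesenchymal stem cell line and a single clone of OP9 stroma, grown in 20% fetal bovine serum; BFC012 is a fibroblast line of mouse fetal liver, grown in 10% serum, so that the serum level cannot be told apart from the line. Both received 2000 rad and were seeded at a density of 25000 cells per square centimetre, with RNA taken 48 hours later, and each was hybridized to 2 Affymetrix mouse expression arrays described as biological replicates, which leaves p-values that measure the spread between these arrays only.

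Values are in log2 units, read as the natural logarithm of the deposited RMA intensity, and differences are OP9M2 minus BFC012 ± SE. If the deposited values are linear instead, every difference is 1.44 times as large. A value at or below 6.09, which is the 95th percentile over 81 chemosensory receptor probe sets (genes silent in most tissues), counts as not above background. Called means that a probe set had a limma adjusted p under 0.05 and differed by 1 log2 unit (2-fold) or more. The arrays of OP9M2 correlated less with each other (r = 0.980 across probe sets) than those of BFC012 (r = 0.994). On OP9M2 replicate 2 the poly-A control probe sets had a median of 3.66, against 6.12 to 6.97 on the other 3 arrays. Of the fibroblast and mesenchymal markers, 7 of 8 were above background on both OP9M2 arrays and 6 of 8 on both BFC012 arrays, and Thy1 was above it on none. Col1a2 was called higher in OP9M2, with 14.2 and 14.1 against 6.18 and 6.07 in BFC012 (8.07 ± 0.14, limma adjusted p = 0.00105). The other 7 were not called. Of 4 mesenchymal stem cell markers, Lepr was above background on no array and the other 3 on all, with Eng called lower in OP9M2 (-1.88 ± 0.20, limma adjusted p = 0.0175) and Nt5e (-1.68 ± 0.50) and Cd44 (-0.47 ± 0.29) not called. Of 5 hepatocyte markers, Alb, Afp and Apoa1 were above background on no array, and Ttr and Apoa2 on all. Among 4 blood markers Ptprc and Adgre1 were above it on none, Cd68 on 3 arrays and Csf1r on all, and among 3 endothelial markers Pecam1 and Cdh5 were above it on none and Kdr on all. On the probe set with the highest mean, limma called 0 of the 12 hepatocyte, blood and endothelial markers, where 5.91% of all genes were called. By limma, 1 of the 12 had an unadjusted p under 0.05, as did 4241 of all 18193 genes. A dimmer probe set of Afp was called lower in OP9M2 (-2.25 ± 0.21, limma adjusted p = 0.0130), with all 4 arrays below background.

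Promoter windows are shown for the 3 members on which the description turns most: Aldh1a1, which was far apart between the lines, its relative Aldh1a2, which was at background in both, and Rarb, the receptor gene known as a direct target of retinoic acid. RefSeq windows on GRCm38.p6 run from 250 bases before to 50 bases after a transcription start and were found for 7 of the 10 genes (12 windows in all); Rdh10, Aldh1a3 and Crabp2 had none. In the window of Rarb (chr14:16575427-16575726, minus strand) the capitals mark a direct repeat of receptor half-sites with 5 bases between them, the layout of the classical retinoic acid response element.
Rarb: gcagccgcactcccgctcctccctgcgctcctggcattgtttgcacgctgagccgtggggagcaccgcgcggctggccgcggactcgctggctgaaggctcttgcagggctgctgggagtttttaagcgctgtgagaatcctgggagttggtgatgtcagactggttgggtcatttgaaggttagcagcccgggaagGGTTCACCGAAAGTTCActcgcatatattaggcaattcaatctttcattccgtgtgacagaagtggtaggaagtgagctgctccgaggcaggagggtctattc
In the windows of Aldh1a1 (chr19:20601718-20602017, plus strand) and Aldh1a2 (chr9:71215539-71215838, plus strand) the capitals mark the octamer ATGCAAAT, the motif of POU domain factors, and the letters CCAAT.
Aldh1a1: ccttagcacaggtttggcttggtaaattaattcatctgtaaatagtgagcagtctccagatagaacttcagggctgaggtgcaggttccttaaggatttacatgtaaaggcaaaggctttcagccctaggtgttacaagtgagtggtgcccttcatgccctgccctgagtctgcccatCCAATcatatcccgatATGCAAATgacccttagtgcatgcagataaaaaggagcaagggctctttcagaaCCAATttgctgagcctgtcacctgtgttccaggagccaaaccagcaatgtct
Aldh1a2: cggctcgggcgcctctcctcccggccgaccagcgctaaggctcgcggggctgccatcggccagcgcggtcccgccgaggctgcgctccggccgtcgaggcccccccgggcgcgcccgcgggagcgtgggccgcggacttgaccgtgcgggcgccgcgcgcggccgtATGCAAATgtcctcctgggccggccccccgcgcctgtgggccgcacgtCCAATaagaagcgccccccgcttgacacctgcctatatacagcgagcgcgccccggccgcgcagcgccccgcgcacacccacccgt

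Motifs were searched on both strands, and none of the marked ones overlapped another. A half-site was the consensus AGGTCA, the variant AGTTCA, the variant GGGTCA or the variant GGTTCA. Repeats of such half-sites spaced by 5 bases occurred in 32 of 32851 windows of the same length (0.0974%), and of the 12 member windows only in that of Rarb, where the repeat began 53 bases before the start. Repeats spaced by 2 bases were in 0 of the 12 member windows and in 0.268% of all windows. The octamer was in 1.74% of all windows and in 2 of the 12, beginning 56 bases before the start in Aldh1a1 and 84 bases before it in Aldh1a2. CCAAT was in 37.4% of all windows and in 4 of the 12, among them overlapping windows of Rara that share the same site. In Aldh1a1 it began 72 and 2 bases before the start, and the match at 2 bases ran across the start. The other window of Aldh1a1 (chr19:20492333-20492632) held none of these motifs. These matches describe the letters of the windows and are no evidence of binding.

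Of the 10 members, 0 were called higher and 1 was called lower in OP9M2, where 5.91% of all genes (2.36% higher, 3.56% lower) and 4.46% of all probe sets (1.8% higher, 2.66% lower) were called; since the members were picked on this contrast, nothing is read from that count. The called gene was Aldh1a1. For 4 members, Aldh1a2, Aldh1a3, Crabp1 and Rarb, the probe set with the highest mean was not above background on any array. The remaining 5 were Rdh10, Crabp2, Rara, Rarg and Cyp26b1, which were above background on at least 1 array and were not called. The median difference over the 10 genes was 0.23, against 0.032 over all genes. The arrays of the lines did not overlap for 5 members (3 higher and 2 lower in OP9M2), which is close to the 53.2% of all genes (28.4% higher, 24.8% lower).

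**Figure D1:**
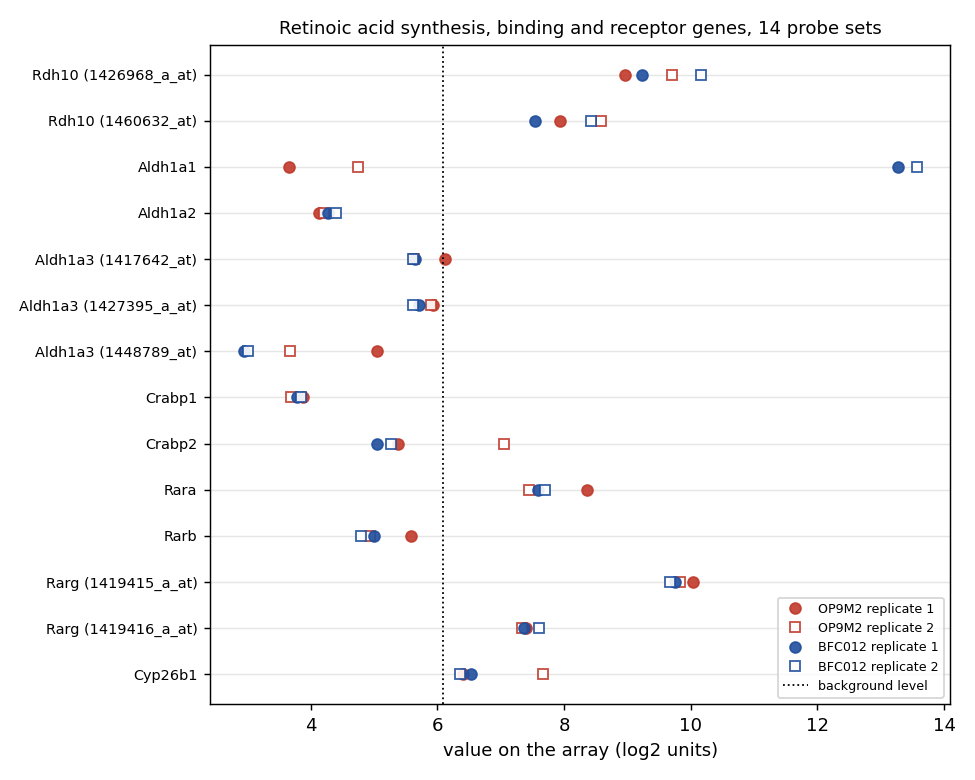
Value of each of the 14 member probe sets (rows, from synthesis to breakdown) on the 4 arrays, with log2 units on the horizontal axis; OP9M2 is red and BFC012 blue, replicate 1 a filled circle and replicate 2 an open square, and the dotted line marks the background level of 6.09. The OP9M2 symbols of Aldh1a1 lie at 3.65 and 4.75, its BFC012 symbols at 13.3 and 13.6, and no other row separates the lines as widely.

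The first step, from retinol to retinaldehyde, showed no called difference. Rdh10 encodes the retinol dehydrogenase that is needed for retinoic acid synthesis in the mouse embryo. Its brighter probe set had 8.97 and 9.70 in OP9M2 replicates 1 and 2, against 9.23 and 10.2 in BFC012 replicates 1 and 2, a difference of -0.36 ± 0.42. Each line had a lower and a higher array, and the lines overlapped. The dimmer probe set of Rdh10 had 7.93 and 8.59 in OP9M2 and 7.55 and 8.43 in BFC012 (0.27 ± 0.39), so the probe sets differed in sign and neither was called.

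The second step, from retinaldehyde to retinoic acid, held the one wide difference. Aldh1a1 encodes a cytosolic retinaldehyde dehydrogenase whose activity is also used to sort stem and progenitor cells. It had 3.65 and 4.75 in OP9M2, against 13.3 and 13.6 in BFC012, so both OP9M2 arrays were below background and both BFC012 arrays far above it. The difference of -9.22 ± 0.40 was the most negative of all 18193 genes, and counted from the background level Aldh1a1 was at least 160-fold lower in OP9M2. In such bulk RNA, fewer cells expressing a gene and less RNA per cell cannot be told apart. It was -9.76 without OP9M2 replicate 2, the array whose poly-A controls were low, and -8.67 without OP9M2 replicate 1. It was not called without either BFC012 array (-9.36 and -9.07), where limma called 0 of all 45037 probe sets, with 4568 and 4517 at an unadjusted p under 0.05. The gene was represented by a single probe set, so no second one could be set beside it.

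The near relative Aldh1a7, which is found in rodents and not in humans and closely resembles Aldh1a1 in sequence, was looked at after the values of Aldh1a1 were seen. It had 6.48 and 7.21 in OP9M2, against 8.11 and 8.15 in BFC012 (-1.29 ± 0.28, limma adjusted p = 0.0908), so both lines were above background and the difference was not called. How far transcripts of one of these genes bind the probes of the other was not tested.

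The other retinaldehyde dehydrogenases were at or near background in both lines. Aldh1a2 encodes the main enzyme of retinoic acid synthesis in the early embryo and in embryonic mesothelium. It had 4.13 and 4.21 in OP9M2, against 4.27 and 4.41 in BFC012, all below the background level and close together. Aldh1a3, an enzyme of the developing eye and nasal region, had 3 probe sets. The one with the highest mean had 5.93 and 5.90 in OP9M2, against 5.71 and 5.62 in BFC012 (0.25 ± 0.13). The next had 6.13 and 5.63 in OP9M2, against 5.65 and 5.62 in BFC012, where OP9M2 replicate 1 was just above background. The dimmest had 5.05 and 3.68 in OP9M2, against 2.94 and 3.01 in BFC012 (1.39 ± 0.48). That last difference lay wholly below the background level and the probe set was not called.

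In the cytosol, the binding proteins differed in which array stood out. Crabp1, a marker of some fibroblasts and of neural crest derivatives, had 3.87 and 3.69 in OP9M2, against 3.79 and 3.85 in BFC012, none above background. Crabp2 encodes the protein known to hand retinoic acid to its nuclear receptors. It had 5.38 and 7.05 in OP9M2, against 5.05 and 5.27 in BFC012 (1.05 ± 0.58), so that OP9M2 replicate 2 alone was above background. The gap between the OP9M2 arrays, 1.67 log2 units, was larger than the difference between the lines, and 1.62% of all genes had a gap at least as large. Without OP9M2 replicate 1 the difference was 1.89, and without OP9M2 replicate 2 it was 0.22.

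In the nucleus, Rara and Rarg were above background on every array and Rarb on none. Rara, the receptor expressed in most tissues, had 8.36 and 7.44 in OP9M2, against 7.59 and 7.70 in BFC012 (0.26 ± 0.33). OP9M2 replicate 1 was the highest of the 4 and OP9M2 replicate 2 the lowest, and without OP9M2 replicate 1 the difference was -0.20. Rarg, a receptor known from cartilage, skin and hematopoietic stem cells, had 10.0 and 9.83 in OP9M2, against 9.75 and 9.68 in BFC012 on its brighter probe set (0.22 ± 0.15). Its dimmer probe set had 7.40 and 7.34 in OP9M2, against 7.36 and 7.61 in BFC012 (-0.11 ± 0.15), which overlapped. Rarb, with 1 probe set, had 5.59 and 4.94 in OP9M2, against 5.005 and 4.79 in BFC012 (0.37 ± 0.26), below background on all 4 arrays. Whether the repeat in its promoter window acts in these lines was not tested.

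Breakdown was represented by Cyp26b1, the retinoic acid hydroxylase of developing limb, skin and gonad. It had 6.40 and 7.66 in OP9M2, against 6.53 and 6.35 in BFC012 (0.59 ± 0.44), above background on all 4 arrays, with OP9M2 replicate 2 apart from the other 3. Without OP9M2 replicate 1 the difference was 1.22, and without OP9M2 replicate 2 it was -0.040. The arrays of OP9M2 were 1.26 log2 units apart, and 3.996% of all genes had a gap at least that large. Over the members, the OP9M2 arrays were at least 1 log2 unit apart for 3 of 10 (Aldh1a1, Crabp2 and Cyp26b1, each higher on replicate 2), against 7.40% of all genes. Both OP9M2 values of Aldh1a1 (3.65 and 4.75) and the lower one of Crabp2 (5.38) were below background. The BFC012 arrays were at least 1 log2 unit apart for 0 of 10 members and 0.566% of all genes.

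**Figure D2:**
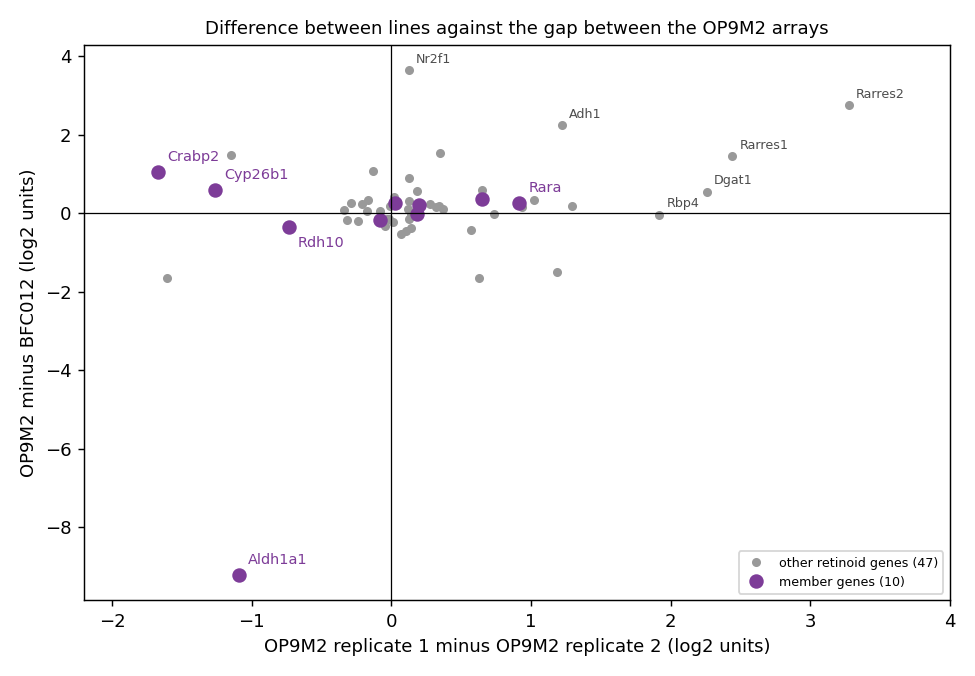
Difference between the lines (vertical axis, OP9M2 minus BFC012, log2 units) against the gap between the OP9M2 arrays (horizontal axis, replicate 1 minus replicate 2, log2 units) for the 10 member genes in purple and 47 other retinoid genes in grey. Aldh1a1 lies far below the rest at -9.22, Crabp2 and Cyp26b1 lie left with OP9M2 replicate 2 higher, and Rarres2, Rarres1, Dgat1 and Rbp4 lie right with replicate 1 higher.

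Mesothelial markers moved with Aldh1a1. Of 7, 5 were called lower in OP9M2 (Upk3b, Upk1b, Wt1, Lrrn4 and Bnc1), against 3.56% of all genes, and 2 were not called. For all 7, both OP9M2 arrays were below both BFC012 arrays, which held for 24.8% of all genes. The lines were nearest for Krt19, with 9.01 and 7.29 in OP9M2 against 9.035 and 10.1 in BFC012 (-1.40 ± 0.68, limma adjusted p = 0.373). The log2 values of the 7 summed to 41.4 and 42.6 in OP9M2, against 70.3 and 72.7 in BFC012. Mesothelin, Msln, a defining marker, had 6.56 and 10.0 in OP9M2, against 10.2 and 10.48 in BFC012 (-2.05 ± 1.16, limma adjusted p = 0.443), so it was not low on OP9M2 replicate 2. Hepatic stellate cells store vitamin A as retinyl esters, and of 6 of their markers 1, the transcription factor Lhx2, was lower in OP9M2 (3.54 and 3.75, against 7.96 and 8.03 in BFC012; -4.35 ± 0.15, limma adjusted p = 0.00150). The stellate marker values summed to 31.1 and 31.0 in OP9M2 and to 34.9 and 35.0 in BFC012. That gap came from Lhx2, since the other 5 were not called and differed by -0.13 (Ngfr) to 0.26 (Des). Lrat, the enzyme that makes those esters, Reln and Hand2 were not above background on any array of either line. The part of these cell types in the difference of Aldh1a1 was not tested.

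**Figure D3:**
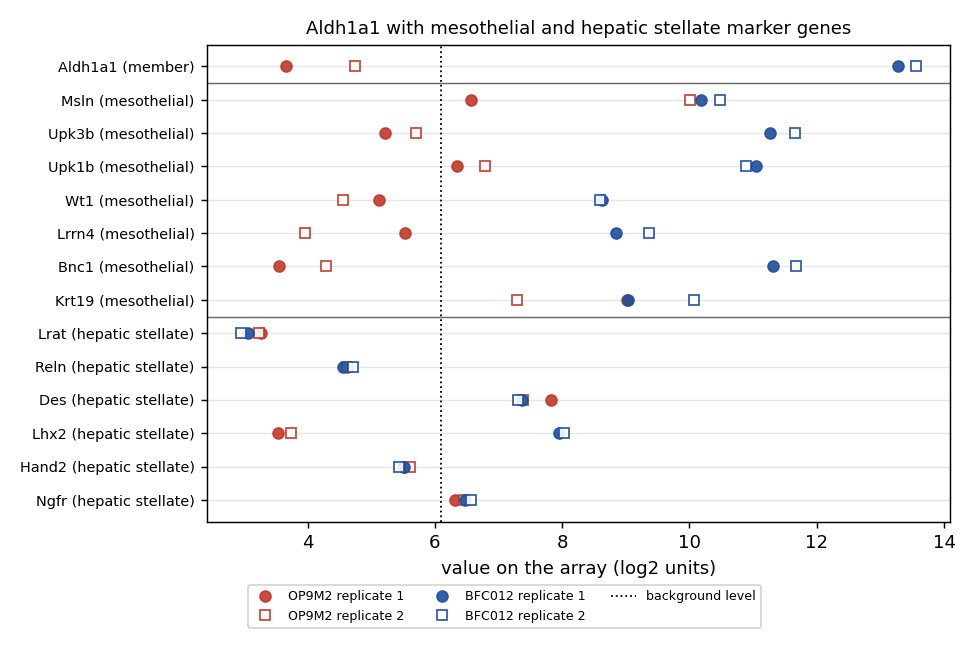
Value of Aldh1a1 (top row), 7 mesothelial markers and 6 hepatic stellate markers on the 4 arrays (log2 units along the horizontal axis), with symbols, colours and dotted line as in the plot of members. Bnc1, a zinc finger factor, has 3.55 and 4.28 for OP9M2 against 11.3 and 11.7 for BFC012, and Lrat lies between 2.96 and 3.27 on all arrays.

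Genes with the pattern most like that of a member were sought for the member with the largest difference in each direction, by the root mean square distance between log2 values centred on their mean over the 4 arrays. Nearest to Aldh1a1 were Ndnf, a secreted factor (0.353 log2 units), the cell cycle inhibitor locus Cdkn2a (0.427) and the Wnt modulator Sfrp2 (0.433). Ndnf had 3.996 and 4.15 in OP9M2, against 12.9 and 13.2 in BFC012. Nearest to Crabp2 were the corepressor gene Runx1t1 (0.0469), Hao1, an oxidase of liver peroxisomes (0.103), and the neurotrophic factor Gdnf (0.113), each with its highest value on OP9M2 replicate 2, where Hao1 (5.55) was still below background. Runx1t1 had 4.90 and 6.50 in OP9M2, against 4.45 and 4.77 in BFC012.

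Beyond the members, 55 genes of retinoid transport, metabolism, signalling and response were listed by role, of which 47 were measured. Of these 2 were higher in OP9M2, 1 was lower and 44 were not called, which is 6.38% called and close to the 5.91% of all genes. Their median difference was 0.16, against 0.032 over all genes, and 12 of the 47 were not above background on any array. The 3 called genes were all among the 17 measured genes known to respond to retinoic acid. That is 17.6% of the 17 (2 higher and 1 lower), against 5.91% of all genes, and the excess was not tested.

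Nr2f1 encodes COUP-TFI, an orphan nuclear receptor that can bind the same response elements as retinoic acid receptors. It had 11.2 and 11.0 in OP9M2, against 7.21 and 7.71 in BFC012, with each OP9M2 array above both BFC012 arrays by more than 3 log2 units. The gene was 12.5-fold higher in OP9M2 (3.65 ± 0.21, limma adjusted p = 0.00403) and had 1 probe set. Its relative Nr2f2, which encodes COUP-TFII, was not called on any of 6 probe sets and had 9.91 and 9.92 in OP9M2, against 10.2 and 9.95 in BFC012.

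Meis2, a homeobox partner of Hox proteins that retinoic acid induces in the limb bud, had 11.7 and 11.4 in OP9M2, against 10.0 and 10.0 in BFC012 (1.53 ± 0.17, 2.89-fold higher, limma adjusted p = 0.0203). Of its 4 probe sets 3 were called higher, and the fourth differed by 1.58 without being called. Hoxb4, a homeobox gene of the anterior Hoxb cluster, had 7.001 and 6.38 in OP9M2, against 8.29 and 8.40 in BFC012 (-1.66 ± 0.25, 3.16-fold lower, limma adjusted p = 0.0411), and both of its probe sets were called lower. With the replicate number as a block, Meis2 (limma adjusted p = 0.0792) and Hoxb4 (limma adjusted p = 0.122) were not called and Nr2f1 was (limma adjusted p = 0.0365).

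Among enzymes of retinol and retinaldehyde, 0 of 12 were called by limma, where 5.91% of all genes were called. By limma, 4 of the 12 had an unadjusted p under 0.05, as did 4241 of all 18193 genes. Rdh5 passed the limit on the adjusted p but differed by less than 1 log2 unit (0.90 ± 0.14, limma adjusted p = 0.0452). It was called with log2 of the deposited values. The retinol-oxidizing alcohol dehydrogenase Adh1 had 8.85 and 7.63 in OP9M2, against 6.06 and 5.94 in BFC012 (2.24 ± 0.43, limma adjusted p = 0.0708), so both BFC012 arrays were below background. The difference was 1.63 without OP9M2 replicate 1 and 2.85 without OP9M2 replicate 2. Adh7, another alcohol dehydrogenase with activity on retinol, had 7.29 and 8.44 in OP9M2, against 6.16 and 6.60 in BFC012 (1.48 ± 0.43, limma adjusted p = 0.167), and its second, dimmer probe set was called higher (3.33 ± 0.34, limma adjusted p = 0.0163). Dhrs3, which reduces retinaldehyde back to retinol and is itself induced by retinoic acid, had 8.55 and 7.36 in OP9M2, against 9.39 and 9.54 in BFC012 (-1.51 ± 0.42, limma adjusted p = 0.153). Adh1, Adh7 and Dhrs3 did not overlap between the lines, which held for 8 of the 12 enzymes and for 53.2% of all genes. The difference of Dhrs3 was -2.10 without OP9M2 replicate 1 and -0.91 without replicate 2.

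The retinoid X receptors, which pair with the retinoic acid receptors, were not called, and Rxrg was above background on no array. Rxra had 9.95 and 8.65 in OP9M2, against 9.12 and 9.11 in BFC012 (0.18 ± 0.45), and like Rara it was highest on OP9M2 replicate 1 and lowest on OP9M2 replicate 2. Rxrb had 9.57 and 9.46 in OP9M2, against 9.87 and 10.0 in BFC012 (-0.45 ± 0.14, limma adjusted p = 0.203). Fabp5, a carrier known to take retinoic acid to another receptor, PPAR delta, had 8.88 and 10.49 in OP9M2, against 11.5 and 11.2 in BFC012 (-1.65 ± 0.56, limma adjusted p = 0.220). It was lower on both OP9M2 arrays, with a difference of -2.45 without OP9M2 replicate 2 and -0.85 without replicate 1.

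The remaining named genes differed little or differed most on 1 OP9M2 array. Stra6, the retinol uptake receptor, was between 5.70 and 6.18 on the 4 arrays, and Cyp26a1, a classical retinoic acid target that degrades its own inducer, was not above background on any (4.81 and 4.90 in OP9M2, against 4.98 and 4.64 in BFC012). Tgm2, a transglutaminase induced by retinoic acid in several cell types, had 10.3 and 9.31 in OP9M2, against 9.27 and 9.72 in BFC012 (0.32 ± 0.39). Rarres2 encodes the adipokine chemerin and was found as a gene responsive to a synthetic retinoid. It had 11.7 and 8.41 in OP9M2, against 7.46 and 7.14 in BFC012 (2.75 ± 1.10, limma adjusted p = 0.286), with OP9M2 replicate 1 far above the other 3 arrays. OP9M2 replicate 2 was also above both BFC012 arrays. The difference was 4.39 without OP9M2 replicate 2 and 1.11 without OP9M2 replicate 1.

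**Figure D4:**
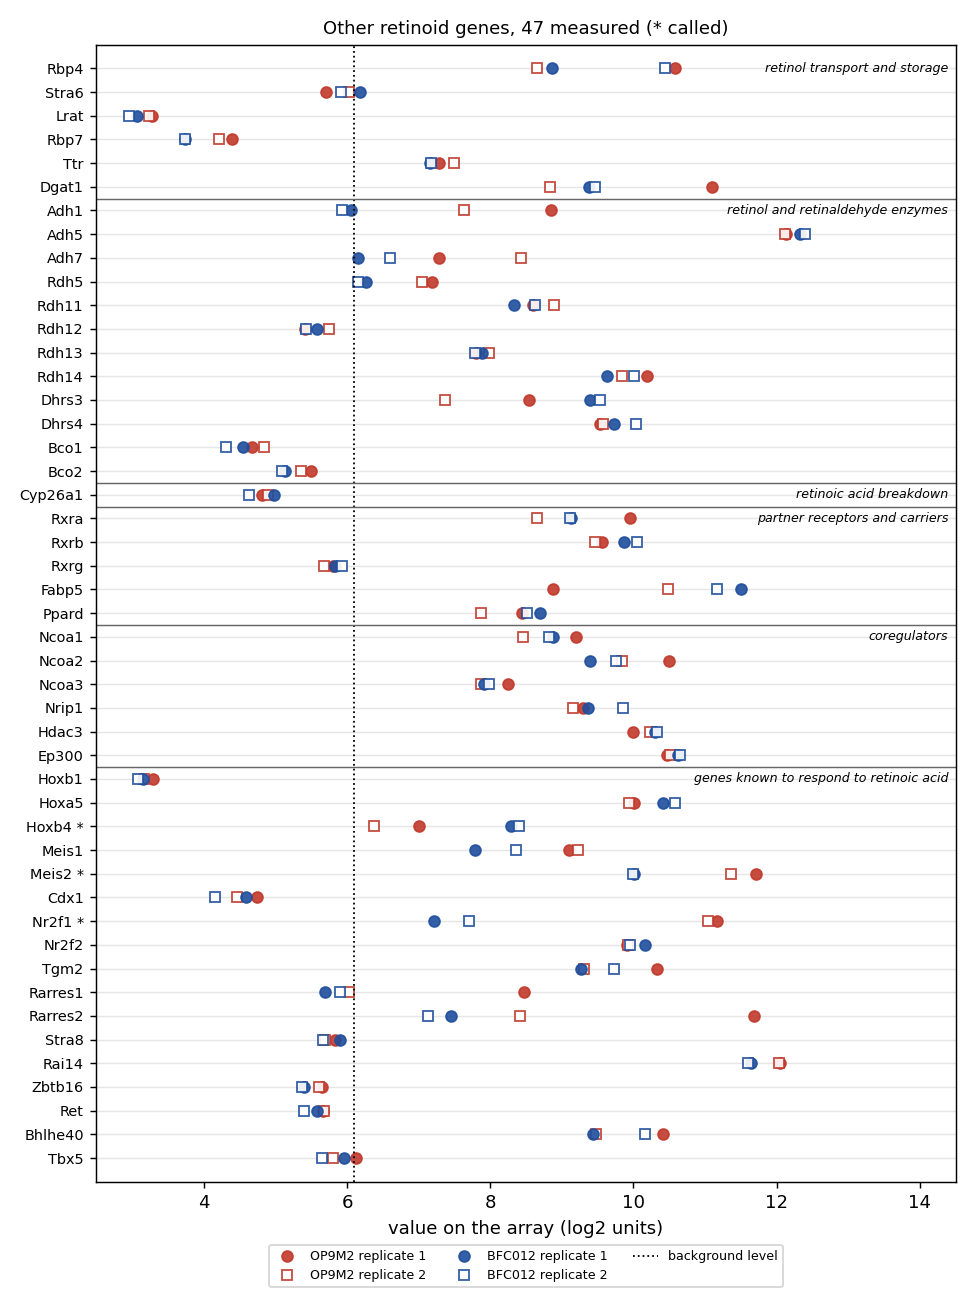
Value of each of the 47 measured other retinoid genes (rows, grouped by role) on the 4 arrays (log2 units along the horizontal axis), with symbols, colours and dotted line as in the plot of members and an asterisk for the 3 called genes. Nr2f1 has 11.2 and 11.0 for OP9M2 against 7.21 and 7.71 for BFC012, and Rarres2 lies at 11.7 on OP9M2 replicate 1 alone.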

How the data were processed

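Total RNA of OP9M2 and BFC012 stroma was hybridized to 4 Affymetrix arrays, 2 for each line, grouped by sample title. Each probe set had 1 deposited intensity per array, and RMA and affy, in versions not given in the sources used here, are named in the authors' processing notes; the study named Bioconductor 2.7, an Ambion kit and limma. Between 6.31% and 6.57% of an array's values exceeded 65535, the scanner's maximum, whereas the natural logarithm ran from 2.06 to 14.9, as RMA log2 values do, and was therefore read as RMA log2; the base is not stated in the sources used here. Per doubling of 18 hybridization controls the natural logarithm rose by 0.839 and log2 by 1.21, about equally far from 1, so these controls do not settle the base. Of 45101 probe sets, 64 controls were left out; 34945 of the others named 1 gene, 932 several and 9160 none, and current symbols came from a RefSeq table for 34741. The probe set with the highest mean stood for a gene. With R 4.3.3 and limma 3.58.1, lmFit and eBayes were run without covariates over 45037 probe sets with Benjamini-Hochberg adjustment, and the fit was tested on simulated data. Detection calls were not used here, so background came from chemosensory receptor genes. A fold against a line without signal above background is a lower bound, counted from that level. The number of arrays limits precision. Members, lists and motifs were chosen with earlier results of these data known. Named were all members, called list genes, 12 list genes set by role, the 3 genes nearest in pattern to 2 members, and Aldh1a7, Adh7, Rdh5, Rarres1, Rarres2, Dgat1 and Rbp4, added after their values were seen. Some listed genes were not analysed here. Alternatives were another log base, quantile normalization, a filter on dim probe sets, other variance models, no minimum difference, gene means, a replicate block and leaving out each array.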

Additional observations from a re-analysis of the deposited data

How the results depend on the processing

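Of 116 member differences recomputed under an alternative, 112 moved by less than 1 SD of the replicates and 4 by more: with log2 of the deposited values, Aldh1a1 (-13.3) and Aldh1a3 (0.36), and with the mean of all probe sets, Aldh1a3 (0.63) and Rarg (0.052). The sign of Rdh10, Crabp1, Rara and Cyp26b1, none of them called, turned under at least 1 alternative. When 1 array was left out, the count of called members ran from 0 to 3, that of other retinoid genes from 0 to 8 and that of all probe sets from 0 to 4437; the zeros came without either BFC012 array, which left the OP9M2 pair to set the spread, and a lone array is assumed to vary like the other line. Replicate numbers are shared by the titles, and the deviations of same-numbered arrays correlated at -0.10. With 2 arrays per line this is 1 correlation, which cannot settle whether same-numbered arrays were handled together. The main fit used no pairing. With the replicate block 707 probe sets were called, 694 of them among the 2008 called without it, and so were 1 member and 1 other retinoid gene; with the numbers crossed, chosen after seeing the data, 1377 probe sets, 1 member and 1 other retinoid gene were. Under log2 values, quantile normalization, the filter, the trend, the robust prior, no minimum difference and gene means, 1 member was called and 3 or 4 other retinoid genes were. Values near background and 2 arrays per line limit what can be said of dim members.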
